A study of Mus musculus with 39 samples.

Results

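Total RNA of muscle stem cells isolated in the presence of DMSO was compared with total RNA of muscle stem cells isolated in the labelling experiment of the same study. The 8 libraries, 4 per group, were taken by their sample names from 39 libraries in 10 groups, and all 16979 genes of the deposited table were considered. The study asked how far the RNA of purified stem cells reflects what these cells transcribe in the animal. One experiment added 4-thiouracil (4tU), a uracil analogue, during an isolation of about 6 h and pulled down the labelled RNA. Another exposed cells during isolation to α-amanitin, which blocks RNA polymerase II, or to DMSO, the control for it. Neither group compared here received the inhibitor or the pull-down.

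The stem cells isolated with DMSO (MuSC_ctrlAM, n = 4; DMSO cells below) carry labels for no 4tU labelling and no α-amanitin. The isolated stem cells of the labelling experiment (Input_MuSC, n = 4; Input cells below) carry the same labels, although the series' description has 4tU added to these samples during isolation. Mice of the labelling experiment were Pax7CreER/+: UPRTHA/+. Their Cre is driven by Pax7 and turns on UPRT, an enzyme that lets a cell use 4tU, in satellite cells. The genotype of the mice behind the DMSO cells, and the age, sex and strain of either group, are not given in the labels. DMSO, the sub-experiment, the mouse genotype and exposure to 4tU therefore cannot be told apart in this comparison. The labels do not say whether replicates were separate animals, so a p-value here gauges only how far these samples spread, and that spread may be technical.

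Satellite cells are the resident stem cells of skeletal muscle. They lie between the fibre and its basal lamina, rest outside the cell cycle in uninjured muscle, and are marked by the transcription factor Pax7. Getting them out requires mincing, enzymatic digestion and sorting, procedures known to switch on immediate early genes, which encode short-lived factors such as Fos, Jun and Egr1. Endothelial cells, fibro-adipogenic progenitors, immune cells, tenocytes and fibre fragments are released by the same digestion.

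Reads recovered from the deposited values numbered 24189620 to 33255988 per library in DMSO cells and 15307952 to 22408295 in Input cells. Values are the authors' RPKM, reads per length of gene model and per read of a scaled library size. That scaling multiplied the library size by 1.25 in DMSO replicate 1, by 1.5996 to 1.66 in the other DMSO libraries and by 1.91 to 1.95 in the Input libraries, so most values of an Input library are lowered relative to a scale of total reads. DMSO replicate 1 stood apart, with correlations of log2 values of 0.977 to 0.982 to its own group, where the other DMSO libraries reached 0.992 to 0.995 with each other and Input libraries 0.9904 to 0.995. Correlations between the groups were 0.941 to 0.945 for DMSO replicate 1 and 0.966 to 0.977 for the other DMSO libraries.

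Of 14165 genes tested with limma, 3495 rose in DMSO cells (24.7%) and 2675 fell (18.9%) at an adjusted p under 0.05. Libraries of the groups did not overlap for 4713 genes (33.3%) higher in DMSO cells and 2564 genes (18.1%) lower. Separate libraries, given for single genes below, are thus common and are no support on their own. Most differences were small. By 2-fold or more, 291 genes rose (2.05%) and 147 fell (1.04%). The median gene was 0.12 higher in DMSO cells on the log2 scale, a shift that depends on the scaling. Without the authors' scaling factor, using library sizes from all reads, the median was -0.22, and of 16085 genes tested 1280 rose (7.96%) and 7462 fell (46.4%). No gene called in the authors' scaling was called in the opposite direction in that recalculation, and 1237 of the 3495 rises and 2675 of the 2675 falls were called again. Without DMSO replicate 1, of 14107 genes tested 4490 rose (31.8%) and 2887 fell (20.5%), and leaving out any 1 Input library gave 2139 to 2277 rises and 1539 to 1903 falls. List medians below are therefore given beside the all-gene median of 0.12, and changes near it carry no direction across scalings.

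**Figure D1:**
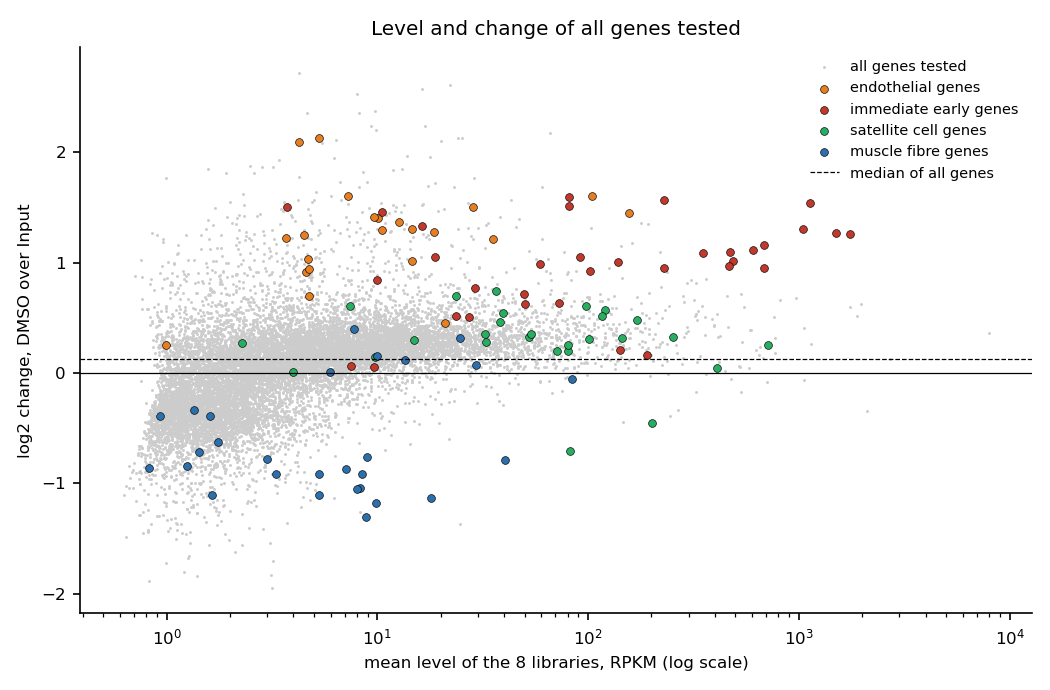
Log2 change, DMSO over Input cells (vertical), against mean RPKM of the 8 libraries on a log axis (horizontal), 1 point per gene tested. Endothelial and immediate early genes lie above the dashed all-gene median of 0.12, satellite cell genes lie mostly close to it, and many muscle fibre genes lie below it.

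The 12 largest rises are described first, ranked over called genes that averaged at least 5 RPKM in 1 of the groups and had no overlap between groups. Cyp26b1, an enzyme that breaks down retinoic acid, lies at chr6:84571414-84593908 on mm10. Its level was 7.06, 6.06, 8.43 and 9.58 RPKM in the DMSO libraries, against 0.768, 0.704, 0.814 and 0.673 RPKM in the Input libraries. The log2 change was 2.72 ± 0.12 (SE, limma adjusted p = 9.17e-08). Cyp26b1 reached the filter level of 1 RPKM only in DMSO libraries. It was thus tested through that group alone, and its direction carries no weight of its own.

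Sele and Selp, neighbouring genes on chromosome 1, encode E-selectin and P-selectin, adhesion molecules with which activated endothelium catches leukocytes. Sele (chr1:164048234-164057677) was at 30.7, 25.7, 28.6 and 27.8 RPKM in the DMSO libraries and at 4.18, 4.30, 4.17 and 4.55 RPKM in the Input libraries. Selp was at 44.0, 34.3, 37.6 and 37.6 RPKM in the DMSO libraries and at 5.97, 5.73, 5.64 and 6.03 RPKM in the Input libraries. The spread within each group was small, while the separation of the groups was a criterion of this ranking and is no result of its own. The log2 changes were 2.58 ± 0.089 for Sele and 2.61 ± 0.098 for Selp (SE, limma adjusted p = 3.81e-08 for each).

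The others of the 12 were taken by the same criteria. Sox7, a transcription factor of endothelium, averaged 14 ± 1.3 RPKM in DMSO cells and 2.01 ± 0.27 RPKM in Input cells (SD, n = 4 each). Apold1, an endothelial early response gene, averaged 16.5 ± 1.1 RPKM in DMSO cells and 3.21 ± 0.31 RPKM in Input cells. Ackr1, a chemokine-binding receptor of venules and red cells, averaged 15.7 ± 1.8 RPKM in DMSO cells and 2.94 ± 0.35 RPKM in Input cells. Csf3 encodes the granulocyte growth factor G-CSF. It averaged 14.03 ± 1.3 RPKM in DMSO cells and 2.34 ± 0.22 RPKM in Input cells. Iigp1, an interferon-induced GTPase, averaged 28.2 ± 1.9 RPKM in DMSO cells and 5.56 ± 0.25 RPKM in Input cells. Col1a1, a chain of type I collagen, was at 130.3, 85.1, 107.1 and 112.4 RPKM in the DMSO libraries and at 21.5, 22.8, 24.9 and 24.8 RPKM in the Input libraries. The remaining genes among the 12 largest rises were Fam43a, Grrp1 and Rnd1, with log2 changes of 2.38, 2.35 and 2.13.

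**Figure D2:**
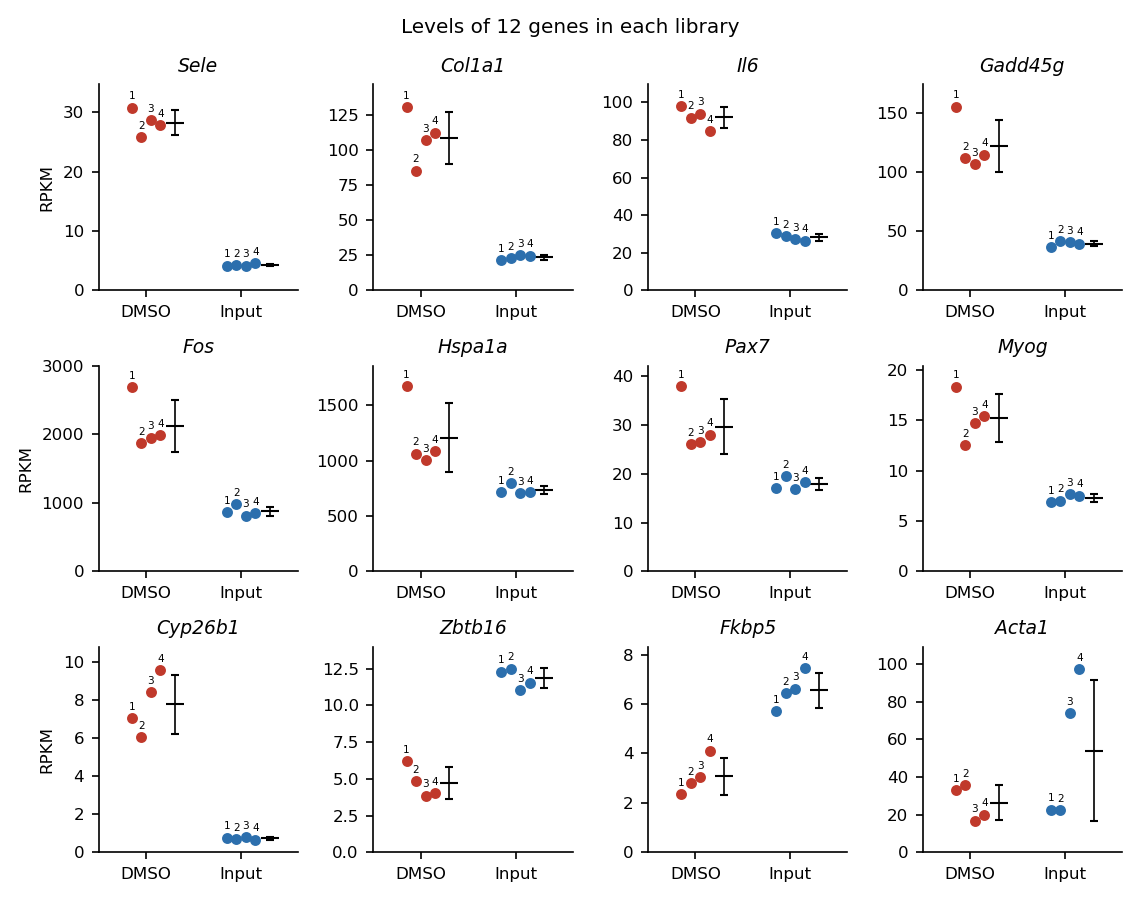
RPKM of 12 genes in each library, DMSO left and Input right, with replicate numbers on the points and bars for mean ± SD (n = 4 each). Sele, Col1a1, Il6, Gadd45g, Fos and Cyp26b1 are higher in every DMSO library, Zbtb16 and Fkbp5 are lower in every DMSO library, and the Acta1 mean of Input cells is carried by replicates 3 and 4.

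Markers of cell types other than the stem cell were measured next, as a check on the labelled cell type. Both groups held high levels of satellite cell markers, described further below, together with RNA of genes listed for other types. The fibro-adipogenic list, for example, took 1.23% of gene reads in DMSO cells and 0.882% in Input cells. The satellite cell list took 1.74% in DMSO cells and 1.84% in Input cells. Without the 10 most abundant genes of the libraries, the fibro-adipogenic shares averaged 0.863% in DMSO cells and 0.575% in Input cells. Whether the stem cells themselves made part of this RNA was not tested. In these bulk samples, fewer cells of a type and less RNA per cell cannot be told apart. Endothelial genes were the most shifted of the 35 lists examined, along with tenocyte genes. Of 22 endothelial genes, 21 rose, none fell, and the median log2 change was 1.28. Pecam1, an adhesion molecule at endothelial junctions, was at 23.5, 18.6, 21.6 and 20.7 RPKM in the DMSO libraries and at 7.999, 7.86, 8.53 and 8.33 RPKM in the Input libraries. Cdh5, the endothelial cadherin, rose by 1.41 ± 0.095, and Kdr, a VEGF receptor, rose by 1.29 ± 0.092 on the log2 scale (SE, limma adjusted p = 1.2e-06 and 1.57e-06). The transcription factors Sox17 and Sox18 rose by 2.13 and 2.09.

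Endothelial genes together took 0.279, 0.296, 0.339 and 0.330% of gene reads in the DMSO libraries and 0.162, 0.152, 0.163 and 0.164% in the Input libraries. This share does not depend on the library scaling, and it is lowest among the DMSO libraries in replicate 1. An exact permutation test over the 70 ways to split the 8 libraries gave a two-sided p of 0.0286, the smallest the design allows, and 0.05 after adjustment over 35 lists, which is not under the threshold. The same p belongs to each of the 20 lists whose shares did not overlap between groups, 18 of them higher in DMSO cells and 2 lower, those of muscle fibres and of RNA polymerase II subunits.

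Genes listed for cells of connective tissue, blood and nerve gave the same direction. Of 20 fibro-adipogenic genes, 16 rose (median 0.71), among them Dcn, a small proteoglycan, Ly6a, which encodes Sca-1, and Pdgfra, the receptor that marks these progenitors. Dcn was at 180, 133, 141 and 140 RPKM in the DMSO libraries and at 57.1, 57.7, 61.3 and 59.1 RPKM in the Input libraries. Pdgfra was at 3.09, 2.49, 3.47 and 3.51 RPKM in the DMSO libraries and at 1.93, 2.13, 1.80 and 1.81 RPKM in the Input libraries. These sets did not overlap in either gene, as in 33.3% of all genes tested in this direction. Fibro-adipogenic genes took 1.116 to 1.30% of reads in DMSO cells and 0.873 to 0.888% in Input cells.

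Of 22 immune genes, 20 rose (median 0.95). Lyz2, lysozyme of macrophages and neutrophils, was at 49.9, 39.5, 46.4 and 43.8 RPKM in the DMSO libraries and at 12.7, 12.6, 13.5 and 12.3 RPKM in the Input libraries. Ptprc, which encodes CD45, rose less, by 0.43 ± 0.093 (SE, limma adjusted p = 0.00521), and Csf1r, the macrophage growth factor receptor, by 0.76 ± 0.12 (adjusted p = 0.000885). Immune genes took 0.0574 to 0.0738% of reads in DMSO cells and 0.0378 to 0.0399% in Input cells.

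Among smaller lists, 7 of 10 tenocyte genes rose (median 1.28). The tendon genes Thbs4 and Fmod rose by 1.97 and 1.96, and Tnmd by 1.123, while Scx, the tendon transcription factor, was not called (0.07, adjusted p = 0.597). Erythroid genes rose in 5 of 5 cases (median 1.22). The globin copies Hba-a1, Hba-a2, Hbb-b1 and Hbb-b2 are near-identical pairs, and reads may be split between copies. Smooth muscle and pericyte genes rose in 10 of 13 cases (median 0.55), led by Rgs5 (1.47) and Pdgfrb (1.19). Schwann and glial genes rose in 8 of 13 cases (median 0.38), among them Mbp (0.76), a structural protein of myelin. No gene of these lists was at 0 in every library of either group. Without DMSO replicate 1, 22 of 22 endothelial, 19 of 20 fibro-adipogenic and 21 of 22 immune genes rose. Under sizes from all reads, 20 endothelial, 12 fibro-adipogenic and 16 immune genes rose. The part of other cells in any result below was not tested.

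**Figure D3:**
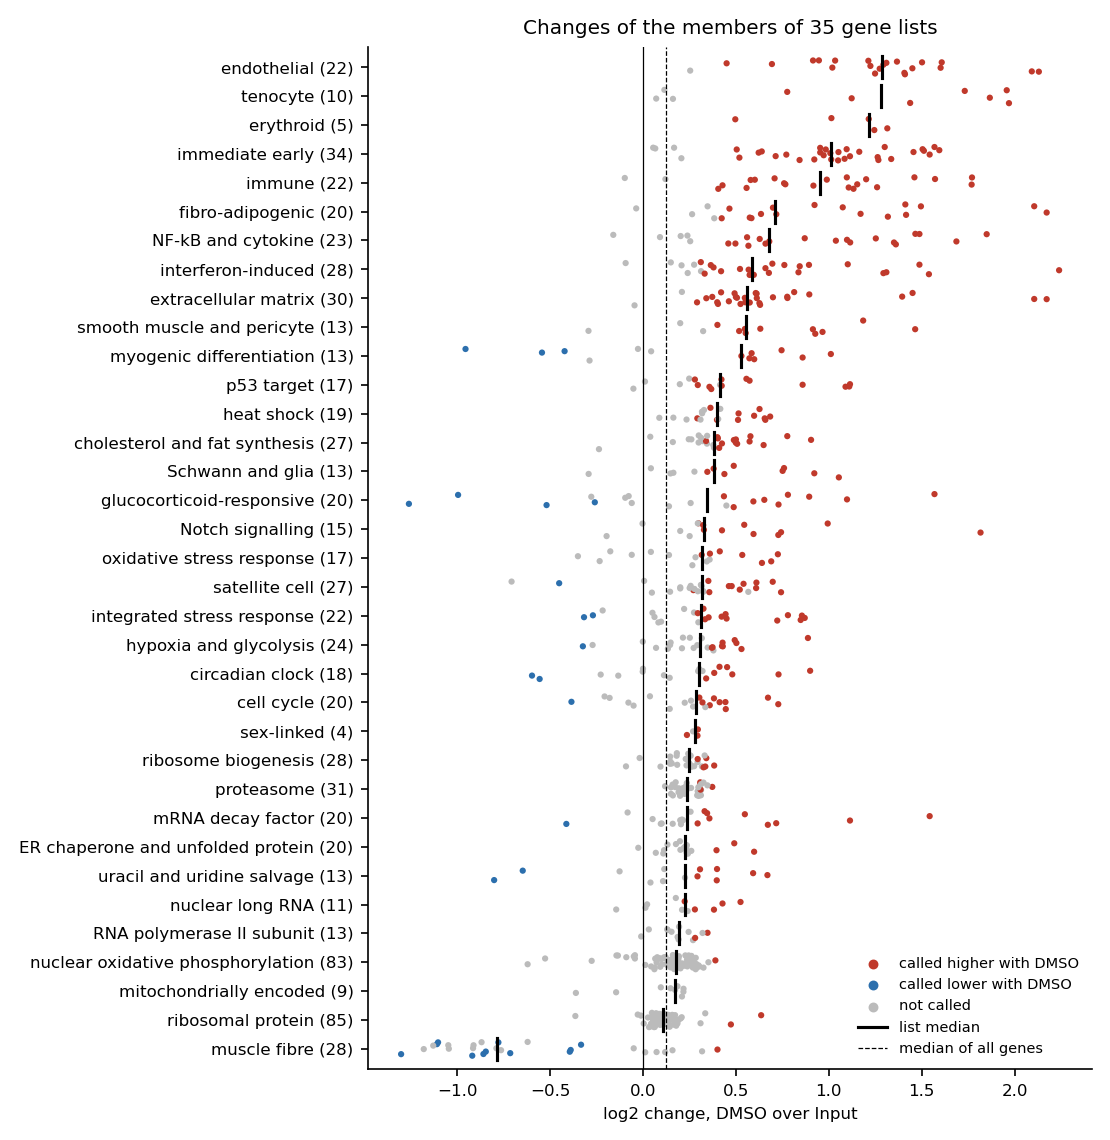
Log2 change, DMSO over Input cells, for the tested members of 35 gene lists, ordered by their medians (black ticks), with genes called higher in red, lower in blue and not called in grey. Endothelial, tenocyte and erythroid genes have the highest medians (1.22 to 1.28), muscle fibre genes the lowest (-0.78), and the dashed line is the all-gene median of 0.12.

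Immediate early genes were higher in DMSO cells almost as a block. Of 34 tested, 30 rose, none fell and the median log2 change was 1.01. Fos, a subunit of the AP-1 transcription factor, was at 2689, 1870, 1954 and 1993 RPKM in the DMSO libraries and at 861, 978, 815 and 848 RPKM in the Input libraries. Its lowest DMSO library was well above its highest Input library, and the log2 change was 1.27 ± 0.15 (SE, limma adjusted p = 0.000101). Jun, the AP-1 partner of Fos, rose by 1.16 ± 0.16 (adjusted p = 0.000259), and Egr1, a zinc finger factor, by 1.26 ± 0.14 (adjusted p = 4.23e-05).

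Gadd45g, a growth arrest gene, was at 155.5, 111.8, 106.9 and 114.8 RPKM in the DMSO libraries and at 36.8, 41.6, 40.7 and 39.7 RPKM in the Input libraries. Dusp1 and Dusp6, phosphatases that switch off MAP kinases, rose by 1.57 and 1.46, and Arc by 1.505. Immediate early genes took 6.21, 5.83, 6.22 and 6.36% of gene reads in the DMSO libraries and 3.44, 3.77, 3.32 and 3.50% in the Input libraries. These genes are thus abundant in both groups, and the excess in DMSO cells is 2.65 percentage points of the reads (exact two-sided p = 0.0286, 0.05 over 35 lists). Of the list, 29 genes lay in the top of 5 equal bins of level, where 42.5% of genes rose and the median was 0.30. Under sizes from all reads, 27 of 35 rose and none fell.

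Many immediate early promoters are known to carry a CArG box, the site of serum response factor. RefSeq promoters on GRCm38.p6 were searched over 250 bases before the start, on both strands, for the 10-base motif, which stood in 1.47% of 32851 promoter entries and 1.62% of 27025 genes. It stood in 4 of 27 immediate early genes with an entry (14.8%). A pair of promoters is shown with the match in capitals because their genes rose in DMSO cells. Zfp36, which encodes the RNA decay factor tristetraprolin, is at chr7:28379229-28379478 on the minus strand, with its match 58 bases before the start. Egr2, a zinc finger factor, is at chr10:67537316-67537565 on the plus strand, with its match 72 bases before the start, and 4 of its 5 entries hold one.
Zfp36: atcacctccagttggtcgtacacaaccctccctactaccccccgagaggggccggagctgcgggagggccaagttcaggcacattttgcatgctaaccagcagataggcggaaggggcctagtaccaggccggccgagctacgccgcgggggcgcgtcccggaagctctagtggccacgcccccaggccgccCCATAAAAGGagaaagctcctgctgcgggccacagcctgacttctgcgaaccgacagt
Egr2: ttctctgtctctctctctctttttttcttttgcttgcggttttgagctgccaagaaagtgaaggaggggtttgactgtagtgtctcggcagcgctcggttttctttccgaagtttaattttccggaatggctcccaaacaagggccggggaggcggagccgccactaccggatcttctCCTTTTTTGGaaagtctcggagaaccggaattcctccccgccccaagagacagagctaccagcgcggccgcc
A match is a description of the letters and says nothing of binding in these cells. Zfp36 was at 2035, 1471, 1617 and 1632 RPKM in the DMSO libraries and at 563, 646, 534 and 564 RPKM in the Input libraries. Egr2 was at 173, 120.5, 117 and 125 RPKM in the DMSO libraries and at 69.8, 72.5, 66.8 and 69.0 RPKM in the Input libraries. The libraries of the groups were separate in both genes, as in 33.3% of all genes tested in this direction. The log2 changes were 1.54 ± 0.14 for Zfp36 and 0.92 ± 0.14 for Egr2 (SE, limma adjusted p = 1.22e-05 and 0.000453).

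NF-kB is a transcription factor that is held in the cytoplasm by inhibitors such as the product of Nfkbia and, once released, turns on cytokines, chemokines and adhesion molecules. Of 23 genes for NF-kB and cytokines, 18 rose, none fell and the median log2 change was 0.68. Promoters of 3 of its chemokine and cytokine genes are shown because they carry the NF-kB motif, a 10-base pattern searched on both strands over the same 250 bases and printed in capitals. Il6 is at chr5:30012864-30013113 on the plus strand, Cxcl10 at chr5:92348890-92349139 on the minus strand and Cxcl1 at chr5:90890995-90891244 on the plus strand.
Il6: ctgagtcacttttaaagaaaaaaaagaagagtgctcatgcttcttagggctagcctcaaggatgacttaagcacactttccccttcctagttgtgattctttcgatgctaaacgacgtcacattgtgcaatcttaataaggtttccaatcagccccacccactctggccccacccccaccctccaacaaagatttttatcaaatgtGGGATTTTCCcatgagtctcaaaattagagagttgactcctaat
Cxcl10: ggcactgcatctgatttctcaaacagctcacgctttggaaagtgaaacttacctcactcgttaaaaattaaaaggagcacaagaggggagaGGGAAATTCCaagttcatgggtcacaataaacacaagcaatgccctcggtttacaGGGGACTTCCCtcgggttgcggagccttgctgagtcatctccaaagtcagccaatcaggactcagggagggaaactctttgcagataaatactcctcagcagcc
Cxcl1: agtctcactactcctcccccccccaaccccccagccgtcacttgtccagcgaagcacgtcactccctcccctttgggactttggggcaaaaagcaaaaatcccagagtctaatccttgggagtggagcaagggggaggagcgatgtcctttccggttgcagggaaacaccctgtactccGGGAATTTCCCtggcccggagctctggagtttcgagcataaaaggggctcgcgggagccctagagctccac
Il6 held 1 match, 44 bases before the start, Cxcl10 held 3 and Cxcl1 held 2 that overlap. The motif stood in 11 of 18 genes of the list with an entry (61.1%), in 6 of 27 immediate early genes (22.2%) and in 8.23% of all 27025 genes. The CArG box stood in 0 of the 18.

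Il6, a cytokine that satellite cells and their neighbours make after injury, was at 97.9, 92.0, 94.0 and 84.6 RPKM in the DMSO libraries and at 30.4, 28.9, 27.3 and 26.4 RPKM in the Input libraries. The chemokine Cxcl10 averaged 30.9 ± 3.7 RPKM in DMSO cells and 10.6 ± 0.50 RPKM in Input cells (SD, n = 4 each). Neither gene had overlapping libraries, as in 33.3% of all genes tested in this direction. The log2 changes were 1.69 ± 0.10 for Il6 and 1.49 ± 0.10 for Cxcl10 (SE, limma adjusted p = 6.21e-07 and 1.46e-06). The cytokine Il1b rose by 1.85 from a low level, with means of 2.74 ± 0.20 RPKM in DMSO cells and 0.402 ± 0.090 RPKM in Input cells (SD, n = 4 each). Il1b thus passed the filter of 1 RPKM through the DMSO cells, and its direction carries no weight of its own. Ptgs2, the inducible enzyme of prostaglandin synthesis, rose by 1.47. Cxcl1, the most abundant chemokine printed above, was at 1185, 990, 959 and 884 RPKM in the DMSO libraries and at 642, 633, 635 and 619 RPKM in the Input libraries, a rise of 0.66 ± 0.13 (adjusted p = 0.00329). The list took 0.678 to 0.739% of reads in DMSO cells and 0.524 to 0.528% in Input cells. When sizes came from all reads, 17 genes rose and 3 fell.

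Interferon-induced genes, which include antiviral effectors, also rose, 22 of 28 with none falling and a median of 0.58. Isg15, a ubiquitin-like protein, was at 20.7, 15.8, 13.0 and 14.03 RPKM in the DMSO libraries and at 5.10, 4.98, 5.22 and 4.91 RPKM in the Input libraries. Ifit3, an RNA-binding antiviral protein, rose by 1.29 ± 0.10 (SE, limma adjusted p = 4.21e-06). With 8 of the genes in the top level bin, the list is less abundant than the immediate early one, and it took 0.346 to 0.370% of reads in DMSO cells and 0.270 to 0.277% in Input cells.

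Stress programmes other than the early response moved less. Heat shock genes, which encode chaperones for unfolded protein, rose in 10 of 19 cases with a median of 0.40. Of the 19, 17 lay in the top level bin, where 42.5% of all genes rose and the median was 0.30. The number rising was 5 without Input replicate 4, 6 or 7 without any other Input library and 15 without DMSO replicate 1. Hspa1a was at 1674, 1065, 1003 and 1088 RPKM in the DMSO libraries and at 719, 795, 710 and 719 RPKM in the Input libraries. DMSO replicate 1 stood above its group, and the rise was 0.68 ± 0.17 (SE, limma adjusted p = 0.0101), or 0.52 without that library (adjusted p = 0.000418). Hspa1a and its near-identical copy Hspa1b may share reads. The heat shock share of reads was 5.57 to 6.37% in DMSO cells and 5.13 to 5.44% in Input cells. Without the 10 most abundant genes of the libraries the heat shock shares averaged 1.42% in DMSO cells and 1.37% in Input cells (exact p = 0.514). Only 3 heat shock genes rose and 2 fell with library sizes from all reads.

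Targets of p53, the factor that arrests damaged cells, rose in 12 of 17 cases (median 0.41). Under sizes from all reads 6 of 18 rose and 2 fell (median 0.09). Without any 1 Input library 7 or 8 rose, and without DMSO replicate 1 the median was 0.24. Btg2, an antiproliferative gene that is also on the immediate early list, was at 1108, 731, 730 and 771 RPKM in the DMSO libraries and at 379, 411, 361 and 368 RPKM in the Input libraries. Plk2, a stress-induced kinase, rose by 1.11 and Gdf15, a stress cytokine, by 1.09. Integrated stress response genes, which respond to a block of translation initiation, rose in 12 of 22 cases and fell in 2 (median 0.31), and 7 to 9 rose without any 1 Input library. Ddit3, which encodes CHOP, rose by 0.87, and Chac1 by 0.85. In the ER chaperone list 3 of 20 rose (median 0.23), among them Dnajb9 (0.49) and Xbp1 (0.40). Oxidative stress genes rose in 7 of 17 cases (median 0.32), with Hmox1, heme oxygenase, at 0.73. Hypoxia and glycolysis genes rose in 9 of 24 cases and fell in 1 (median 0.30), with Adm at 0.89 and Vegfa at 0.43. The top level bin, where 42.5% of all genes rose and the median was 0.30, held 13 of the 17 oxidative stress genes. It also held 15 of the 24 hypoxia, 16 of the 20 ER chaperone and 13 of the 22 integrated stress genes. The oxidative stress and hypoxia lists thus rose about as often as genes of like level, and the ER chaperone list less often. The medians of the integrated stress, ER, oxidative stress and hypoxia lists turned negative with library sizes from all reads. Without any 1 Input library 1 ER chaperone gene, 4 oxidative stress genes and 5 or 6 hypoxia and glycolysis genes rose.

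Genes of cholesterol and fat synthesis rose in 14 of 27 cases with none falling (median 0.38). Of the 27, 18 lay in the top level bin, where 42.5% of all genes rose. Without any 1 Input library 7 to 9 rose, and without DMSO replicate 1 the median was 0.21, with 18 rising and 1 falling. Hmgcs1, an early enzyme of cholesterol synthesis, was at 118.8, 75.8, 75.0 and 78.5 RPKM in the DMSO libraries and at 45.6, 47.5, 45.5 and 43.0 RPKM in the Input libraries. The groups did not overlap, and the rise was 0.90 ± 0.15 (SE, limma adjusted p = 0.000938). Sizes from all reads left 6 of the list rising and 1 falling (median 0.07).

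Satellite cell genes were abundant in both groups, 23 of 27 being in the top level bin. Of these 27, 11 rose and 1 fell, with a median of 0.32, against 42.5% rising and a median of 0.30 for all genes of that bin. Pax7 was at 37.95, 26.1, 26.5 and 27.98 RPKM in the DMSO libraries and at 16.99, 19.4, 16.9 and 18.2 RPKM in the Input libraries. DMSO replicate 1 was the highest, the groups did not overlap, and the rise was 0.70 ± 0.13 (SE, limma adjusted p = 0.00187), or 0.36 with library sizes from all reads. Myf5, a myogenic factor that satellite cells hold in reserve, rose by 0.61 ± 0.17 (adjusted p = 0.0154), and Myod1, its partner in activation, was not called at 0.57 ± 0.22 (adjusted p = 0.0578).

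Among surface markers, the cadherin Cdh15 rose by 0.52 and Vcam1 by 0.48, while Calcr, the calcitonin receptor, Itga7 and Chodl were not called at 0.32, 0.31 and 0.05. The gene that fell was Chrdl2 (-0.45). The list took 1.88, 1.70, 1.65 and 1.70% of reads in the DMSO libraries and 1.84, 1.86, 1.83 and 1.83% in the Input libraries, which overlap (exact p = 0.143, 0.185 over 35 lists). Its median was -0.02 with library sizes from all reads, where 6 rose and 4 fell, so no common direction holds across scalings. Without DMSO replicate 1, 18 rose and 1 fell, and without any 1 Input library 6 or 7 rose and 1 fell.

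Notch signalling, which keeps satellite cells quiescent, was represented by 15 tested genes, of which 10 rose (median 0.33). Dll4, a Notch ligand that endothelium also makes, was at 5.04, 3.68, 4.55 and 4.10 RPKM in the DMSO libraries and at 0.766, 0.850, 1.09 and 0.789 RPKM in the Input libraries. Its rise of 1.82 was the largest of the list, ahead of the feedback inhibitor Nrarp (0.99), the target Hey1 (0.74) and the ligand Dll1 (0.73). Most Dll4 values of Input libraries lay below the filter level of 1 RPKM, so Dll4 was tested through the DMSO cells. Hes1 and Heyl, targets of the pathway, were not called at 0.29 and 0.25. The list's shares of reads overlapped, at 0.353 to 0.397% in DMSO cells and 0.365 to 0.395% in Input cells, and its median was -0.01 with library sizes from all reads.

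Myogenic differentiation genes went both ways, 7 rising and 3 falling of 13 (median 0.53). The median was 0.29 over 14 genes with no filter on low values, and -0.05 under sizes from all reads, where 6 of 14 rose and 4 fell. Myog, the factor that commits myoblasts to fuse, was at 18.4, 12.5, 14.8 and 15.4 RPKM in the DMSO libraries and at 6.85, 7.02, 7.66 and 7.53 RPKM in the Input libraries, a rise of 1.01 ± 0.11 (SE, limma adjusted p = 5.69e-05). The cell cycle inhibitor Cdkn1a rose by 0.86 and Mef2c by 0.60. Those that fell were Tnnt2 (-0.96), Myf6 (-0.54) and Myl4 (-0.42), named after their values were seen. In the cell cycle list 9 of 20 rose and 1 fell (median 0.29), beside 24.7% rising and 18.9% falling among all genes tested. Under sizes from all reads, 2 of 22 rose and 6 fell (median -0.03). Ccnd1, a cyclin of early G1, rose by 0.67 and Cdc20 by 0.73, whereas Cdk1 fell by 0.39 and Mki67, the proliferation marker, was not called (0.14). The list's share of reads was 0.0916 ± 0.0028% in DMSO cells and 0.0918 ± 0.0027% in Input cells (SD, n = 4 each).

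Extracellular matrix genes rose in 28 of 30 cases with none falling (median 0.56). Beyond Col1a1, Col1a2 rose by 2.11 ± 0.11 (SE, limma adjusted p = 2.24e-07), fibronectin (Fn1) by 1.45 and the matrix glycoprotein Thbs1 by 1.40. The list took 1.93 to 2.26% of reads in DMSO cells and 1.72 to 1.76% in Input cells. Under sizes from all reads, 19 still rose and none fell. Fibro-adipogenic cells and tenocytes, whose markers were higher in the same libraries, also make these proteins, and Col1a1 stands on both lists.

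The 12 largest falls, taken by the same level and overlap criteria, included Zbtb16, Fkbp5 and genes of muscle fibres. Zbtb16, which encodes the zinc finger factor PLZF and is induced by glucocorticoid in many cells, lies at chr9:48654311-48835945. It was at 6.19, 4.83, 3.85 and 4.02 RPKM in the DMSO libraries and at 12.3, 12.5, 11.03 and 11.5 RPKM in the Input libraries. Fkbp5, a co-chaperone of the glucocorticoid receptor, was at 2.35, 2.80, 3.05 and 4.11 RPKM in the DMSO libraries and at 5.70, 6.45, 6.62 and 7.45 RPKM in the Input libraries. That the DMSO libraries were all below the Input libraries was a criterion of this ranking. The log2 changes were -1.26 ± 0.13 for Zbtb16 and -0.996 ± 0.14 for Fkbp5 (SE, limma adjusted p = 2.72e-05 and 0.00027).

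The glucocorticoid-responsive list as a whole had no single direction. Of 20 genes, 9 rose and 4 fell, with a median of 0.35, beside 24.7% rising and 18.9% falling among all genes tested. The 4 falls are thus a share close to that of all genes. The median was 0.14 without DMSO replicate 1 and 0.09 under sizes from all reads, where 8 of 21 rose and 6 fell. Dusp1, Nfkbia, Sult1a1 and Per1 rose by 1.57, 1.10, 0.89 and 0.73, and 3 of these also stand on early, NF-kB or clock lists. The other genes that fell were Klf15 (-0.52) and Foxo3 (-0.26), named after their values were seen. Tsc22d3, which encodes the glucocorticoid-induced leucine zipper, was not called (-0.28, adjusted p = 0.143).

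Clock genes also went both ways, 7 rising and 2 falling of 18 (median 0.30). Of the 18, 10 lay in the top level bin, where 42.5% of all genes rose. The balance turned over when sizes came from all reads, with 2 of 19 rising, 7 falling and a median of -0.03. Per3 was at 1.67, 1.69, 1.64 and 1.59 RPKM in the DMSO libraries and at 2.57, 2.65, 2.66 and 2.76 RPKM in the Input libraries, a fall of 0.56 ± 0.073 (SE, limma adjusted p = 0.000199). Dbp, an output factor of the clock, fell by 0.60 (adjusted p = 0.00421) and was named after its value was seen. The repressors Bhlhe40, Per1 and Cry1 rose by 0.90, 0.73 and 0.48. The labels used here give no time of day for the isolations.

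Muscle fibre genes were lower in DMSO cells, and here the spread lay in the Input group. Of 28 tested, 11 fell and 1 rose (median -0.78). That is 39.3% falling, beside 18.9% of all genes tested. Only 6 of the 28 lay in the top level bin. In the lowest 2 of the 5 level bins, 48.3% and 31.8% of all genes fell, with medians of -0.31 and -0.12. The share of fibre genes falling was thus near that of low genes, while their median was further down. Acta1, skeletal actin, was at 33.1, 35.8, 16.8 and 19.96 RPKM in the DMSO libraries and at 22.8, 22.4, 73.9 and 97.1 RPKM in the Input libraries. Input replicates 3 and 4 were far above the rest and Input replicates 1 and 2 lay within the DMSO range, so Acta1 was not called (-0.79 ± 0.45, adjusted p = 0.157). Myoz1, a Z-disc protein, showed the same pair, at 2.39, 2.96, 1.47 and 1.95 RPKM in the DMSO libraries and at 2.98, 3.16, 9.40 and 10.5 RPKM in the Input libraries.

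Other fibre genes were separate without that pair. Cacna1s, the calcium channel of the T-tubule, was at 0.261, 0.608, 0.485 and 0.440 RPKM in the DMSO libraries and at 1.24, 1.30, 1.11 and 1.18 RPKM in the Input libraries. Cacna1s reached the filter level of 1 RPKM only in Input libraries. It was thus tested through that group alone, and its direction is no support for a fall of fibre genes. Myh2, Tnni1 and Myl2 fell by 0.85, 1.10 and 0.72 at mean levels of 2.38 RPKM or less in both groups. The fibre list took 0.125, 0.144, 0.128 and 0.126% of reads in the DMSO libraries and 0.165, 0.161, 0.235 and 0.280% in the Input libraries. Leaving out Input replicate 3 or Input replicate 4 left 6 fibre genes falling in either case, with medians of -0.64 and -0.52, leaving out DMSO replicate 4 left 7, and leaving out Input replicate 2 gave 17. When all 32 libraries of the table shared 1 estimate of the spread, 1 fibre gene fell and none rose.

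The remaining genes among these 12 falls were Pgam2, the muscle form of phosphoglycerate mutase (-1.14), Mroh2a (-1.04), Arrdc2 (-0.81), Dclk3 (-0.70), the antisense RNA Recql5os1 (-0.81) and 4 gene segments of immunoglobulin or T cell receptor. Those segments were Ighg2b (-0.98), Trav13-1 (-0.90), Igkv9-120 (-0.77) and Igkv4-78 (-0.74). Of all 27 segments of this type tested, 17 fell (63.0%) and 7 rose (25.9%). Mroh2a was at 1.45, 3.42, 3.42 and 3.49 RPKM in the DMSO libraries and at 6.49, 6.22, 6.21 and 6.29 RPKM in the Input libraries. DMSO replicate 1 was the lowest, while the separation of the groups was again a criterion. Whether reads were assigned by strand is not stated in the labels, so antisense reads cannot be told from those of Recql5.

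Falls were concentrated among genes at low levels. In the lowest of 5 level bins, at a median of 1.17 RPKM, 8.08% rose and 48.3% fell, with a median log2 change of -0.31. In the top bin, at a median of 20.9 RPKM, 42.5% rose and 0.494% fell. Long noncoding and unclassified RNAs fell in 57.5% of 711 cases and pseudogenes in 55.6% of 545, against 14.9% of 12714 protein-coding genes. Olfactory and vomeronasal receptor genes fell in 99 of 172 cases and rose in 2, with median levels of 1.64 RPKM in DMSO cells and 2.31 RPKM in Input cells. Keratins fell in 9 of 12 cases, with median levels of 0.450 RPKM in DMSO cells and 1.81 RPKM in Input cells. Krt16, an epidermal stress keratin named after its value was seen, averaged 0.0586 RPKM in DMSO cells and 1.58 RPKM in Input cells. The filter asked for 1 RPKM in 3 or more of the 8 libraries. Genes below 1 RPKM in every DMSO library, Krt16 among them, therefore entered only through the Input cells. The direction of such genes was largely set by that filter, so their falls carry no weight of their own. Depth was 24189620 reads or more in DMSO libraries and 22408295 or less in Input libraries, and the part of depth or of other RNA in these falls was not tested.

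Calls also varied with the make-up of the gene. In the shortest of 5 bins of gene model length 13.0% rose and 33.3% fell. In the bin with the highest GC content of the longest transcript (median 56.9%) 34% rose and 8.41% fell, and in the bin with the lowest (median 40.6%) 21.3% rose and 22.3% fell. DMSO replicate 1 exceeded the mean of the other DMSO libraries by a median of 0.33 in the highest GC bin and 0.06 in the lowest, on the log2 scale. Without it, 40.6% of genes in the highest GC bin rose.

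**Figure D4:**
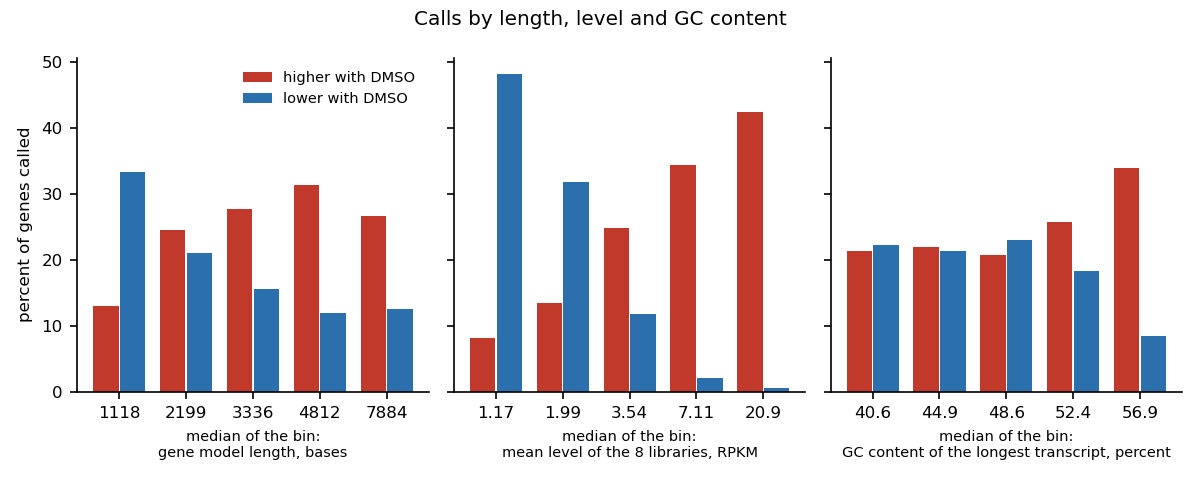
Percent of genes called higher (red) and lower (blue) in DMSO over Input cells, in 5 equal bins of gene model length (bases), mean level (RPKM) and GC content of the longest transcript (percent). Falls drop from 48.3% in the lowest level bin to 0.494% in the highest, and rises run from 8.08% to 42.5%.

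Genes of basic cell machinery stayed close to the all-gene median. Of 85 ribosomal protein genes 2 rose, Rps4l (0.64) and Rpl24 (0.47), and the median was 0.11. Of 83 nuclear genes of oxidative phosphorylation 1 rose, Uqcrc2 (0.39), with a median of 0.17. None of 9 mitochondrially encoded genes was called in either direction by limma, with a median of 0.17. In the proteasome list 3 of 31 rose (median 0.24), in the ribosome biogenesis list 5 of 28 (median 0.25) and among RNA polymerase II subunits 2 of 13 (median 0.19). The top level bin held 77 of the 85 ribosomal protein, 58 of the 83 oxidative phosphorylation and 28 of the 31 proteasome genes. In that bin 42.5% of all genes rose and the median was 0.30, so these lists rose less often than genes of like level. The share of reads of the 13 subunits was lower in every DMSO library, averaging 0.0568% in DMSO cells and 0.0605% in Input cells (exact two-sided p = 0.0286, 0.05 over 35 lists). With library sizes from all reads, 35 ribosomal protein genes and 23 oxidative phosphorylation genes fell, and the medians of all these lists were negative.

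RNA turnover was represented by 20 decay factors, of which 9 rose and 1 fell (median 0.24). Of the 20, 10 lay in the top level bin, where 42.5% of all genes rose. Sizes from all reads left 4 rising and 5 falling (median -0.09), and 5 to 7 rose without any 1 Input library. After Zfp36, the largest were Btg2 (1.11), Tob2 (0.72) and Btg1 (0.67), adaptors of the deadenylase complex. Of 11 nuclear long RNAs 5 rose (median 0.22), with Gas5 at 0.52, Tug1 at 0.43, Malat1 at 0.38 and Neat1 at 0.22. Of 12 such RNAs tested with sizes from all reads 1 rose and 2 fell (median -0.10), and without any 1 Input library 1 rose.

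Genes that bear on the study's labelling method were examined because the groups may differ in transgene and label. Uprt, the endogenous mouse gene, was at 1.18, 1.17, 1.02 and 1.00 RPKM in the DMSO libraries and at 0.859, 1.13, 1.01 and 0.916 RPKM in the Input libraries. The libraries overlap and the gene was not called (0.11 ± 0.097, adjusted p = 0.365). Expression of the UPRT transgene was not analysed here. In the uracil and uridine salvage list 6 of 13 rose and 2 fell (median 0.23). When sizes came from all reads, 2 of 15 rose and 6 fell (median -0.14), and without any 1 Input library 2 to 4 rose. Upp1, uridine phosphorylase, rose by 0.67 and Ctps, CTP synthase, by 0.59. Upb1 and Cda, enzymes of pyrimidine breakdown and salvage, fell by 0.80 and 0.65 at means of 2.27 RPKM or less in both groups. Y-linked genes were present in every library of both groups. Ddx3y was at 87.5, 74.8, 68.8 and 66.1 RPKM in the DMSO libraries and at 63.9, 59.2, 65.4 and 56.7 RPKM in the Input libraries and was not called (0.27, adjusted p = 0.0806). The other 3 Y-linked genes listed, Kdm5d, Eif2s3y and Uty, rose by 0.29, 0.29 and 0.24. Under sizes from all reads none of these 4 was called by limma and their median was -0.05, and without any 1 Input library at most 1 rose.

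Isolated stem cells of 2 further groups give levels to set beside these, without a test. They are the cells isolated with α-amanitin (n = 4), from the same sub-experiment as the DMSO cells, and unfixed control cells of a fixation experiment (n = 3), extracted with another kit and normalised separately by the authors. Y-linked genes averaged 0.0670% of reads in DMSO cells, 0.0702% in Input cells, 0.0378% in α-amanitin cells and 0.00274% in unfixed cells. The groups thus differ in these genes too, and the part of that difference in the levels below was not tested. Immediate early genes averaged 6.16% of reads in DMSO cells, 4.61% in α-amanitin cells, 5.09% in unfixed cells and 3.51% in Input cells. NF-kB and cytokine genes averaged 0.708% in DMSO cells, 0.522% in α-amanitin cells, 0.607% in unfixed cells and 0.526% in Input cells. Endothelial genes averaged 0.311% in DMSO cells, 0.290% in α-amanitin cells, 0.298% in unfixed cells (range 0.105 to 0.556%) and 0.160% in Input cells. The mean of Input cells was thus the lowest of these 4 groups for immediate early and endothelial genes, and that of α-amanitin cells for NF-kB genes.

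Levels of single genes are given in the same way. Cyp26b1 averaged 7.78 RPKM in DMSO cells, 1.56 RPKM in α-amanitin cells, 1.72 RPKM in unfixed cells and 0.740 RPKM in Input cells. Sele averaged 28.2 RPKM in DMSO cells, 17.9 RPKM in α-amanitin cells, 39.9 RPKM in unfixed cells and 4.30 RPKM in Input cells. Col1a1 averaged 109 RPKM in DMSO cells, 212 RPKM in α-amanitin cells, 101 RPKM in unfixed cells and 23.5 RPKM in Input cells. Zbtb16 averaged 4.72 RPKM in DMSO cells, 16.9 RPKM in α-amanitin cells, 16.1 RPKM in unfixed cells and 11.8 RPKM in Input cells, the lowest mean being that of the DMSO cells. Muscle fibre genes averaged 0.131% of reads in DMSO cells, 2.98% in α-amanitin cells, 0.631% in unfixed cells and 0.210% in Input cells.

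**Figure D5:**
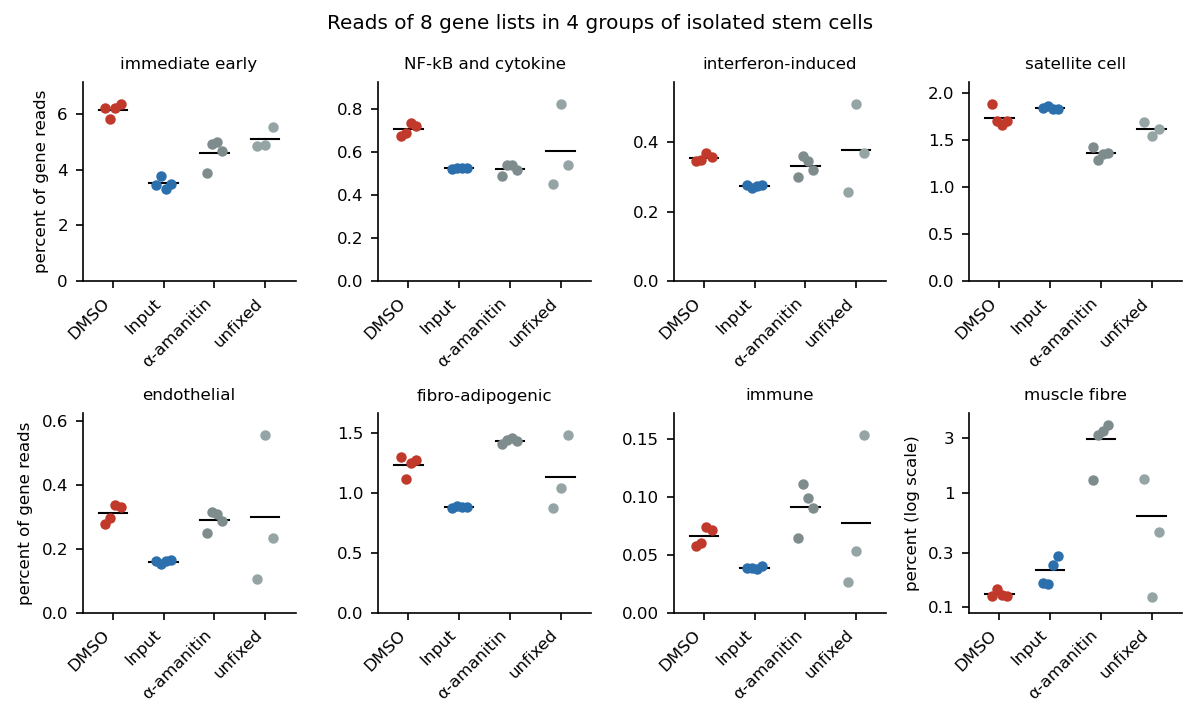
Percent of gene reads taken by 8 gene lists in each library of DMSO, α-amanitin, unfixed and Input cells, with a line at each group mean (log axis for muscle fibre). Immediate early genes take 5.83 to 6.36% in DMSO libraries and 3.32 to 3.77% in Input libraries, and endothelial genes take 0.279 to 0.339% in DMSO libraries and 0.152 to 0.164% in Input libraries.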

How the data were processed

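Polyadenylated RNA was read from 500 pg of total RNA per sample (1 ng for the unfixed cells) with oligo(dT)-primed SMARTseq v4, 13 to 15 cycles and 101 bp paired reads, per the labels' protocols. The deposited values are RPKM, computed by the authors per gene model. The tools named per the submitters' processing notes are Trim Galore, STAR, featureCounts (Subread) and edgeR, with mm10 and with versions not given in the sources used here. In the deposited table the header is shifted by 1 cell, and columns were taken by position. Values times gene length and 1 factor per library gave whole reads within 0.1 read for 100% of values, from which depth and the authors' library scaling were recovered. The planned count test was replaced because the unit is RPKM. The main test was limma 3.58.1 (R 4.3.3) with trend, on log2(RPKM + 0.5), over genes that reached 1 RPKM in 3 or more of the 8 libraries, with calls at an adjusted p (Benjamini-Hochberg) under 0.05. Every adjusted p of a gene comes from it, and fold changes on this scale understate changes of low genes. Shares of reads were compared with two-sided exact permutation tests. In simulated data for this comparison with 13858 genes, 90.8% of 98 genes changed 1.5-fold and 100% of 99 changed 2-fold were called. The simulated libraries all had the same spread and scaling, and none stood apart as DMSO replicate 1 does. These rates therefore need not hold for the real libraries.

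Genes were named by rule: the 12 largest rises and 12 largest falls among called genes at 5 RPKM or more whose libraries did not overlap, leaving out numbered gene models and pseudogenes; the members of each list with the lowest adjusted p, at most 4; cell type markers; and in every case Fos, Jun, Egr1, Pax7, Myf5, Myod1, Hspa1a, Acta1, Uprt, Xist and Ddx3y. Xist was not analysed here, and 3 genes that the rule names are not reported here. Other list members named (Cxcl1, Chrdl2, Hes1, Heyl, Cdk1, Mki67, Tsc22d3 and Hspa1b) were chosen after their values were seen. The members and lists were chosen with earlier results of these data known. Of 16979 genes, 1488 had no symbol in the table and 1350 of these were named by ID from GENCODE. No label says that replicate numbers pair the samples, and they were not treated as pairs in the main test. Same-number correlations of deviations were -0.104, -0.12, -0.112 and 0.092. Those of different numbers ran from -0.179 to 0.198, so this check cannot settle whether the numbers pair the samples. Promoter sequences are from RefSeq, and gene coordinates are those deposited. Alternatives covered the scaling, the filter, the pseudocount, limma-voom on recovered reads, all groups in 1 fit, a replicate block and leaving out each library. Gene types, GC content and motifs were examined after seeing the data. Tables were handled in pandas 2.3.3 and numpy 2.4.6 under Python 3.11.15, and figures drawn with matplotlib 3.10.9.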

Additional observations from a re-analysis of the deposited data

Results flagged for a closer look

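Of 138 values tested for a library far from the others of its group, 12 were picked out, and chance gives about 1 in 20. DMSO replicate 1 accounts for 9 of them. It was high, against the range of the other DMSO libraries, for Csf3 (16.03 RPKM, others 13.1 to 13.6), Hspa1a (1674 RPKM, others 1003 to 1088), Pax7 (37.95 RPKM, others 26.1 to 27.98), Myf5 (169 RPKM, others 98.6 to 104), Fos (2689 RPKM, others 1870 to 1993), Egr1 (2864 RPKM, others 2307 to 2363) and the share of Schwann and glial genes (0.167% of reads, others 0.151 to 0.153%). It was low for Mroh2a (1.45 RPKM, others 3.42 to 3.49) and Recql5os1 (1.74 RPKM, others 3.10 to 3.33). Input replicate 2 was high for Hspa1a (795 RPKM, others 710 to 719) and Myf5 (86.5 RPKM, others 71.6 to 73.9) and low for the endothelial share (0.152% of reads, others 0.162 to 0.164%). The cause was not tested.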

How the results depend on the processing

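With library sizes from all reads, 1280 genes rose and 7462 fell, 149 and 775 of them by 2-fold or more, and the median was -0.22. The cause of the authors' unequal scaling factors was not tested. With all groups in 1 fit, 1807 rose and 531 fell. The 2-fold falls numbered 44 with a pseudocount of 1, 386 with a pseudocount of 0.1 and 460 with limma-voom, which called 3695 rises and 2513 falls. Leaving out 1 library at a time gave 2139 to 4490 rises, 1539 to 2929 falls, 261 to 321 rises and 85 to 205 falls of 2-fold or more, and medians of 0.06 to 0.15. The lowest 2-fold falls came without DMSO replicate 1 (85), and each Input library left out lowered the rises (2139 to 2277 left). With the replicate block 2857 rose and 2360 fell, although no label says that the numbers pair the samples. Every other alternative kept the counts within 1.5 times the main ones.

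For 147 named genes and 2498 refits, 2328 kept direction and side of the threshold, 155 lost the call, 5 gained it and 10 changed sign. Those 10 were with library sizes from all reads, where the log2 change was -0.015 for Gnl3, -0.044 for Nop56, -0.027 for Psmc4, -0.026 for Psmd6, -0.11 for Neat1, -0.060 for Polr2m, -0.038 for Eif2s3y, -0.066 for Uty, -0.14 for Uprt and -0.073 for Ddx3y. Of 34 lists with a positive median, 19 turned negative there and 2 without DMSO replicate 1.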
